A study of Mus musculus with 20 samples.

Results

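Described here are 10 genes of cell-to-cell adhesion and of the epithelial-mesenchymal transition (EMT), chosen as a list: the cadherins Cdh1, Cdh2 and Cdh11, the catenins Ctnnb1 and Ctnnd1, the intermediate filament gene Vim, the transcription factors Snai2, Zeb1 and Zeb2, and the gap junction gene Gja1. Of the 14299 genes in the count table, 9 are members of this list; Cdh1 was not analysed here. Primary mouse ovarian surface epithelial (OSE) cells, the single layer that covers the ovary, were kept for 48 hours without hormones and then exposed for 15 days to 100 nM estradiol (E2) or to the ethanol vehicle (0.0002%). Cells were caught on one Fluidigm C1 circuit of 20 columns, and each column gave one cDNA library made from the 3′ ends of transcripts. All control columns were filled from one inlet with one cell suspension and all E2 columns from the other, so every test of E2 compares these suspensions, and the spread between libraries covers the picking of cells and the making of libraries but not differences between cultures or animals. Column 13 was not analysed here, which left 10 control and 9 E2 libraries.

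The deposited cluster labels divided the cells into a responsive group, whose profile shifted with E2 in the study, and cluster 1, the cells that the study described as unresponsive. Responsive cells numbered 203 in control (15 to 25 per library) and 218 with E2 (17 to 30 per library), and cluster 1 cells numbered 126 in control (8 to 18 per library) and 42 with E2 (1 to 9 per library). A library entered a cluster with at least 3 cells, so 39 E2 cells in 7 libraries stood for cluster 1 with E2. Median reads per cell were 143233 in control responsive cells, 117809 in E2 responsive cells, 112126 in control cluster 1 cells and 87632 in E2 cluster 1 cells, and the median share of mitochondrial reads was 2.08%, 2.43%, 2.53% and 3.55% in the same order. Total reads per library were 3867791 to 5078340 in control and 2693258 to 4037847 with E2. Of 10 OSE markers (keratins, mesothelin, Wt1 and others), 9 were in the table, and their summed level in counts-per-million (CPM), reads scaled to a common total per sum, was 4714 to 7646 over all libraries of both clusters. By mean level, Krt7, Krt8, Krt19 and Upk1b were lower in cluster 1 in both conditions, and Krt18, Upk3b, Msln and Gpm6a were higher. Wt1 was higher there in control and lower with E2. Krt19 had a read in 39.9% of cluster 1 and 96.2% of responsive cells. The 6 of 9 markers of stromal fibroblasts in the table summed to 1676 to 4666 CPM in responsive cells. In cluster 1 cells they summed to 2712 to 10445 CPM. Col1a2 made up most of that difference, with a read in 99.4% of cluster 1 and 42.3% of responsive cells. Mean levels of Col1a1, Col3a1 and Pdgfra were lower in cluster 1 in both conditions, and that of Dcn was higher. Col1a1 had a read in 76.8% of cluster 1 and 91.4% of responsive cells. Summed markers of theca cells (2 of 5 in the table, led by Star) were 13.5 to 136 CPM in responsive and 74.8 to 599 CPM in cluster 1 cells, those of granulosa cells (1 of 6, Inha) 0 to 192 CPM and those of endothelium (3 of 6, led by Pecam1) 313 to 811 CPM over all libraries. Markers of leukocytes (3 of 6) reached at most 109.5 CPM with Ptprc near 0, and those of muscle cells (3 of 6) at most 11.3 CPM in control and 28.6 CPM in E2 responsive cells and 181 CPM in control cluster 1 cells (mostly Acta2), with 0 in every E2 cluster 1 library. The part of other cell types in the results was not tested.

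Cadherins are membrane proteins that bind the same or a related cadherin on the next cell, and their tails carry β-catenin, which links them to actin, and p120-catenin, which keeps them at the membrane. In an EMT, epithelial cells lose E-cadherin, gain N-cadherin and vimentin, and turn on repressors of the SNAIL and ZEB families that bind E-box motifs in the E-cadherin promoter. OSE cells are of mesothelial origin and are known to carry N-cadherin, vimentin and keratins together, so that this layer shows both epithelial and mesenchymal features when at rest. Connexin 43, the product of Gja1, forms the gap junction channels through which neighbouring cells exchange ions and small molecules.

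RefSeq promoter windows on GRCm38.p6, from 250 bases before to 50 bases after a transcript start, were at hand for 5 of the 9 genes, in 10 windows. Those of Gja1 and Ctnnd1 are shown because these genes were called higher with E2, in responsive and in cluster 1 cells respectively. Both strands were searched for an E-box (CAGGTG or CACCTG), a palindromic estrogen response element (GGTCA and TGACC spaced by 3 bases), one arm of it (AGGTCA or TGACCT), an AP-1 element (TGANTCA) and a GC box (GGGCGG or CCGCCC), and the matches are in capitals.
Gja1, chr10:56377050-56377349, plus strand: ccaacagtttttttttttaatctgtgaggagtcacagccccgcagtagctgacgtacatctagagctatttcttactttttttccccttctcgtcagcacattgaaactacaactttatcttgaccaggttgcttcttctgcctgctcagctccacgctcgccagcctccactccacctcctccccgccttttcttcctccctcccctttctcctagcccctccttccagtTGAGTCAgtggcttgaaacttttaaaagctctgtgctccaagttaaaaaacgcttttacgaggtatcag
Ctnnd1, chr2:84650691-84650990, minus strand: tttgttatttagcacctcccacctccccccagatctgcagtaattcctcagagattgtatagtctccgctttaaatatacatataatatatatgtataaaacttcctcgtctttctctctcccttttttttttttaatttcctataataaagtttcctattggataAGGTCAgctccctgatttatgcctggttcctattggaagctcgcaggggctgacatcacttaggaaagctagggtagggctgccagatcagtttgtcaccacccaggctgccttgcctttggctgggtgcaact
The Gja1 window held one AP-1 element, whose first base is at -19 when the transcript's first base is counted as 0. The Ctnnd1 window held one such arm, at -84, and its other window (chr2:84658928-84659227) held none of the motifs. One of the 4 windows of Zeb2 (chr2:45110228-45110527) held 2 AP-1 elements and a GC box. Of 32851 promoter windows of the same length, 7.81% held an AP-1 element, 16.3% a single arm, 20.2% an E-box, 35.7% a GC box and 0.0700% the palindromic element. None of the 10 windows of these genes held an E-box or a palindromic element, which says only that these letters are not in these windows.

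In build GRCm38, with positions from GENCODE release M21, Cdh2 (ENSMUSG00000024304) lies on chromosome 18 from 16588877 to 16809246 and Cdh11 (ENSMUSG00000031673) on chromosome 8 from 102632095 to 102785642, both on the minus strand. Ctnnb1 (ENSMUSG00000006932) lies on chromosome 9 from 120929216 to 120960507 on the plus strand and Ctnnd1 (ENSMUSG00000034101) on chromosome 2 from 84600071 to 84650765 on the minus strand. Vim (ENSMUSG00000026728) spans 13573927 to 13582826 on the plus strand of chromosome 2, and Gja1 (ENSMUSG00000050953) spans 56377330 to 56402513 on the plus strand of chromosome 10. Snai2 (ENSMUSG00000022676) lies on chromosome 16 from 14705852 to 14709385, Zeb1 (ENSMUSG00000024238) on chromosome 18 from 5591860 to 5775467 and Zeb2 (ENSMUSG00000026872) on chromosome 2 from 44983632 to 45117395. Reads are assigned to the whole gene, so no exon or isoform can be told apart.

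Between the clusters, none of the 9 genes stood apart. Ctnnb1, Gja1 and Vim were lower in cluster 1 than in responsive cells of the same library in 15, 15 and 14 of 17 libraries, Zeb2, Cdh11 and Zeb1 in 13, 12 and 11, while Ctnnd1 was higher in 13 of 17 and Cdh2 in 9. The clusters had been defined by SC3 on imputed values of the same cells, so the differences are a description and no p-value between the clusters is given. Library values of the clusters overlapped for each of the 9 genes, while they did not overlap for 0.588% of the 11398 genes fitted in both clusters (0.149% higher in cluster 1), and 2.64% of genes kept one direction in all 17 libraries, none of the 9 among them. The fitted log2 difference of cluster 1 from responsive cells, with condition as a covariate, had a median of 0.01 over the 8 genes fitted and of -0.06 over all genes.

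**Figure D1:**
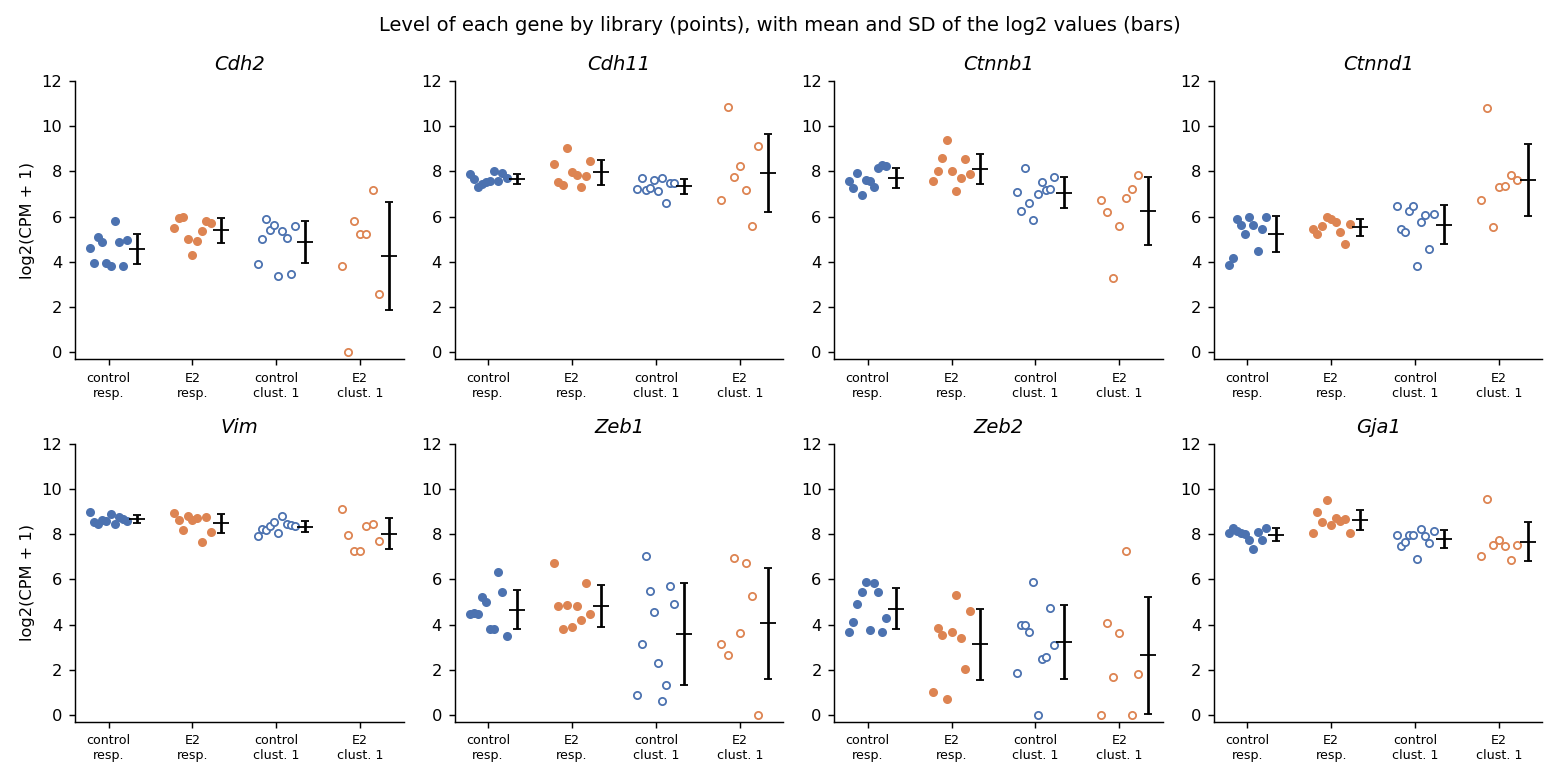
Level of 8 genes as log2(CPM + 1), one point per library, in control (blue) and E2 (orange) responsive cells (filled) and cluster 1 cells (open), with the mean and SD of the log2 values beside each group (n = 10, 9, 10 and 7 libraries). All groups of a gene overlap, and the E2 cluster 1 sums, of 3 to 9 cells each, are the most spread.

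Among the cadherins, Cdh2 encodes N-cadherin, the classical cadherin of mesenchymal and mesothelial cells. Its level was 13.01 to 54.5 CPM (median 25.7) over the 10 control libraries of responsive cells and 9.31 to 58.6 CPM (median 36.3) over the 10 control libraries of cluster 1. With E2 it was 18.9 to 62.9 CPM (median 44.2) in 9 libraries of responsive cells and 0 to 144 CPM (median 36.2) in 7 libraries of cluster 1. Cluster 1 was above responsive cells in 9 of 17 libraries and below in 8, and the fitted log2 difference was 0.20. Cdh11 encodes OB-cadherin, a mesenchymal cadherin first known from bone-forming cells. In control libraries it measured 158 to 256 CPM (median 194) in responsive and 95.4 to 209 CPM (median 164) in cluster 1 cells, where 8 of 10 libraries were lower in cluster 1. With E2 the ranges were 159 to 526.5 CPM (median 229) and 47.3 to 1870.2 CPM (median 213), the latter widened by one library, E2 library 15, whose sum holds 3 cells.

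The catenins went opposite ways. Ctnnb1, the β-catenin that binds cadherin tails and also carries WNT signals to the nucleus, measured 125 to 311 CPM (median 194) in control responsive cells and 57.2 to 283 CPM (median 139) in control cluster 1 cells. With E2 it measured 139.6 to 669 CPM (median 260.4) in responsive and 8.68 to 229 CPM (median 106) in cluster 1 cells, and all 7 E2 libraries were lower in cluster 1. Over both conditions, cluster 1 reached 50.1% of the responsive level on average (fitted log2 difference -0.98). Ctnnb1 shares exon sequence with Ulk4, a gene on the opposite strand, and its deposited value was within 0.01 of a whole number in 51 of 467 cells with a value (10.9%), against 98.2% for Ctnnd1 and 100% for Vim and Gja1. Whether the counting used strand is not given in the sources used here. Reads from the sequence shared by Ctnnb1 and Ulk4 can therefore not be told apart, and how many there are was not measured. The summed level of both genes, a measure added after the data were seen, was 590.5 ± 71.9 CPM (SD, n = 10) in control responsive, 615 ± 174 CPM (SD, n = 9) in E2 responsive, 419.8 ± 103 CPM (SD, n = 10) in control cluster 1 and 307 ± 144 CPM (SD, n = 7) in E2 cluster 1 cells. The sum was lower in cluster 1 in 16 of 17 libraries.

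Ctnnd1, p120-catenin, binds the part of the cadherin tail next to the membrane and slows the uptake of cadherins into the cell. It measured 13.6 to 62.6 CPM (median 46.2) in control and 26.6 to 61.3 CPM (median 47.0) in E2 responsive cells. In cluster 1 it measured 13.3 to 88.7 CPM (median 60.1) in control and 45.5 to 1766 CPM (median 165) with E2. Control libraries were higher in cluster 1 in 7 of 10 cases and E2 libraries in 6 of 7. The fitted log2 difference was 1.60 and takes in E2 library 15, the highest of all. Gm28635, a predicted gene on the same strand that shares exons with Ctnnd1, averaged at most 9.13 ± 9.28 CPM (SD, n = 9, E2 responsive cells) and had no read in E2 cluster 1 cells.

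Vim, the intermediate filament of mesenchymal cells and of OSE cells, was read in 94.0 to 96.1% of cells in each of the 4 groups. It measured 350.2 to 504 CPM (median 393) in control and 197 to 483 CPM (median 397) in E2 responsive cells, against 244 to 440.1 CPM (median 329.9) in control and 153 to 553 CPM (median 250.1) in E2 cluster 1 cells. Responsive cells were thus the higher group in 9 of 10 control and 5 of 7 E2 libraries, with a fitted log2 difference of -0.34. In the deposited imputed values the order was the same, with means of 5.28 in control responsive and 5.10 in control cluster 1 cells on a scale taken as log2. The clusters had been defined on imputed values, so this is no separate support.

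**Figure D2:**
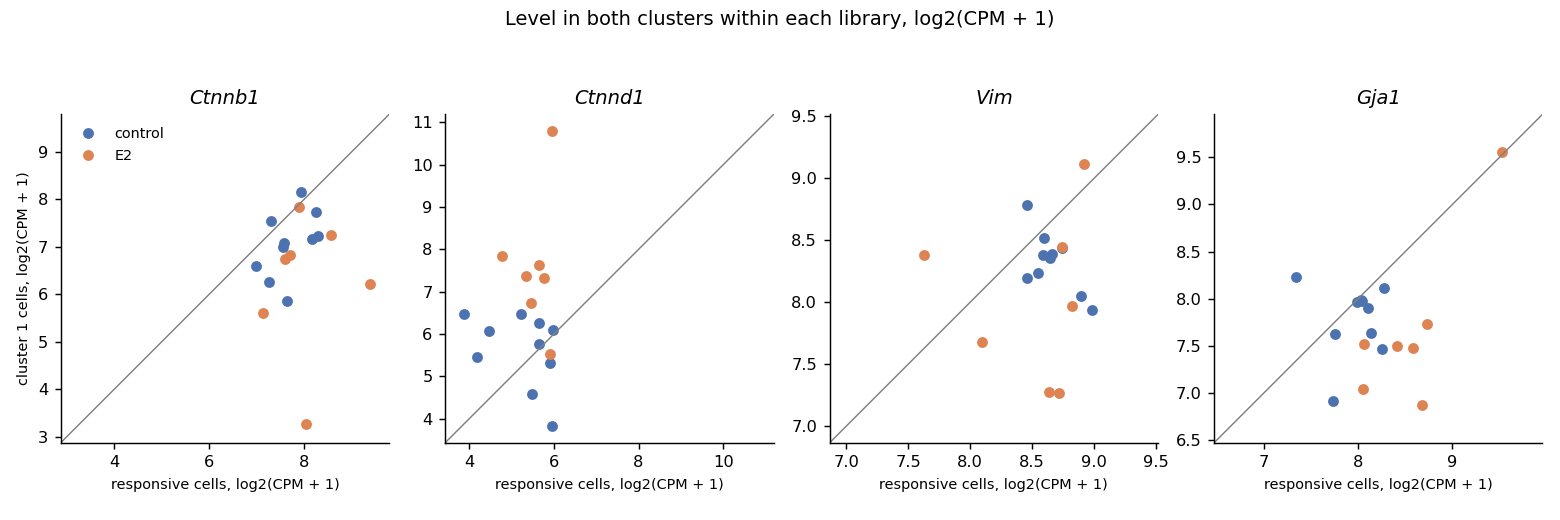
Level of Ctnnb1, Ctnnd1, Vim and Gja1 in cluster 1 cells (vertical axis) against responsive cells of the same library (horizontal axis), both as log2(CPM + 1), for 10 control (blue) and 7 E2 (orange) libraries; the line marks equal levels. Ctnnb1 and Gja1 lie below the line in 15 of 17 libraries and Vim in 14, and Ctnnd1 lies above it in 13.

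The EMT transcription factors were sparse. Snai2, or SLUG, a zinc finger repressor of E-cadherin, had 2 reads in 2 of 203 control responsive cells (0.985%, exact 95% interval 0.120 to 3.51%), 4.66 estimated reads in 3 of 218 E2 responsive cells (1.38%, 0.285 to 3.97%), 16 reads in 1 of 126 control cluster 1 cells (0.794%, 0.0201 to 4.34%) and 1 read in 1 of 42 E2 cluster 1 cells (2.38%, 0.0603 to 12.6%). It never passed the filter on low counts, and a difference between groups was not detectable at this depth. There are no molecular identifiers. The intervals take the cells of all libraries as independent, so they cover the sampling of cells but not differences between libraries or cultures. Zeb1, a zinc finger and homeodomain repressor, measured 10.2 to 79.8 CPM (median 21.3) in control and 12.9 to 104 CPM (median 27.4) in E2 responsive cells, and 0.516 to 129 CPM (median 15.0) in control and 0 to 121 CPM (median 11.5) in E2 cluster 1 cells. Its relative Zeb2 measured 11.6 to 57.9 CPM (median 23.8) in control and 0.649 to 38.6 CPM (median 10.5) in E2 responsive cells. In cluster 1 Zeb2 measured 0 to 58.1 CPM (median 9.69) in control and 0 to 150.04 CPM (median 2.51) with E2. The ranges of both genes overlapped between the clusters, with fitted log2 differences of 0.12 for Zeb1 and -0.10 for Zeb2, and 13 of 17 libraries had less Zeb2 in cluster 1.

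Gja1, connexin 43, measured 161 to 309.9 CPM (median 262) in control and 264 to 737 CPM (median 382) in E2 responsive cells, and 119.7 to 299 CPM (median 244) in control and 117 to 750.2 CPM (median 180.02) in E2 cluster 1 cells. It was lower in cluster 1 in 9 of 10 control and 6 of 7 E2 libraries, and the fitted log2 difference was -0.42. E2 library 15 was the highest of its group in both clusters, at 737 and 750.2 CPM. When the 4 groups of each of the 9 genes were ordered by their median, the library ranges of neighbouring groups overlapped in all 27 pairs of neighbours. E2 responsive cells had the highest median for Cdh2, Cdh11, Ctnnb1, Vim, Zeb1 and Gja1, E2 cluster 1 cells for Ctnnd1 and control responsive cells for Zeb2.

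To ask how E2 acted on these genes in the cells that respond to it, the sums of responsive cells were compared between 9 E2 and 10 control libraries. Gja1 rose with E2 and was the one gene of the list to pass the test, with a mean level of 411 ± 144 CPM (SD, n = 9) in E2 and 253 ± 45.8 CPM (SD, n = 10) in control libraries, a 1.61-fold change. All 9 E2 libraries lay above the control median and 7 of 9 above the highest control library, so the ranges overlapped only in the lower part of the E2 group. The log2 fold change was 0.69 (SE 0.17, 95% interval 0.36 to 1.02; edgeR's quasi-likelihood test with Benjamini-Hochberg adjustment, adjusted p = 0.0322). A gene was called when its adjusted p was under 0.05 with a log2 fold change beyond 0.5 in size, which held for 1.37% of 10265 genes tested, 0.848% higher and 0.526% lower with E2, and the ranges of E2 and control libraries did not overlap for 0.419% of them.

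Cdh2 had the largest fold change of the genes that were higher with E2, but also a larger SE. It measured 43.8 ± 15.3 CPM (SD, n = 9) with E2 and 25.3 ± 12.9 CPM (SD, n = 10) in control, with 8 of 9 E2 libraries above the control median and 3 above every control library, and its log2 fold change of 0.79 (SE 0.33) did not pass (edgeR, adjusted p = 0.381). Ctnnb1 had a log2 fold change of 0.48 (SE 0.23; edgeR, adjusted p = 0.499) and Cdh11 one of 0.38 (SE 0.18; edgeR, adjusted p = 0.505), and in each 3 of 9 E2 libraries lay above the control range. Ulk4, whose reads from the sequence shared with Ctnnb1 cannot be told apart, had a log2 fold change of -0.27 (SE 0.13; edgeR, adjusted p = 0.514), and the mean log2 level of the sum of Ctnnb1 and Ulk4 differed by 0.03 between E2 and control. Without E2 library 15, the highest for both genes, the values were 0.25 for Ctnnb1 and 0.20 for Cdh11.

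Zeb2 showed the largest difference in the lower direction, with 12.4 ± 12.1 CPM (SD, n = 9) in E2 against 29.9 ± 18.5 CPM (SD, n = 10) in control responsive cells. In 5 of 9 E2 libraries Zeb2 was below every control library, and in one it was above the control median. The log2 fold change was -1.27 (SE 0.57, 95% interval -2.39 to -0.15), which did not pass (edgeR, adjusted p = 0.460). Zeb1 (0.23, SE 0.43), Ctnnd1 (0.15, SE 0.29) and Vim (-0.14, SE 0.15) had intervals that included 0 (edgeR, adjusted p = 0.937, 0.937 and 0.877). At an unadjusted p below 0.05 were 5 of the 8 genes tested, Cdh2, Cdh11, Ctnnb1, Zeb2 and Gja1, and 1015 of all 10265 genes, and the median log2 fold change was 0.30 over the 8 genes and 0.02 over all genes tested.

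The call for Gja1 was near the threshold. It was made in 7 of 8 other settings and in 11 of 19 fits that left out one library, and it was lost with every cell thinned to 20000 reads (0.56; edgeR, adjusted p = 0.102) and without control library 4, 5, 6, 7 or 9 or E2 library 12, 17 or 19 (log2 fold change 0.63 to 0.69 in these; edgeR, adjusted p at most 0.0711). Without E2 library 15, the highest, the log2 fold change was 0.55 and Gja1 was still called.

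**Figure D3:**
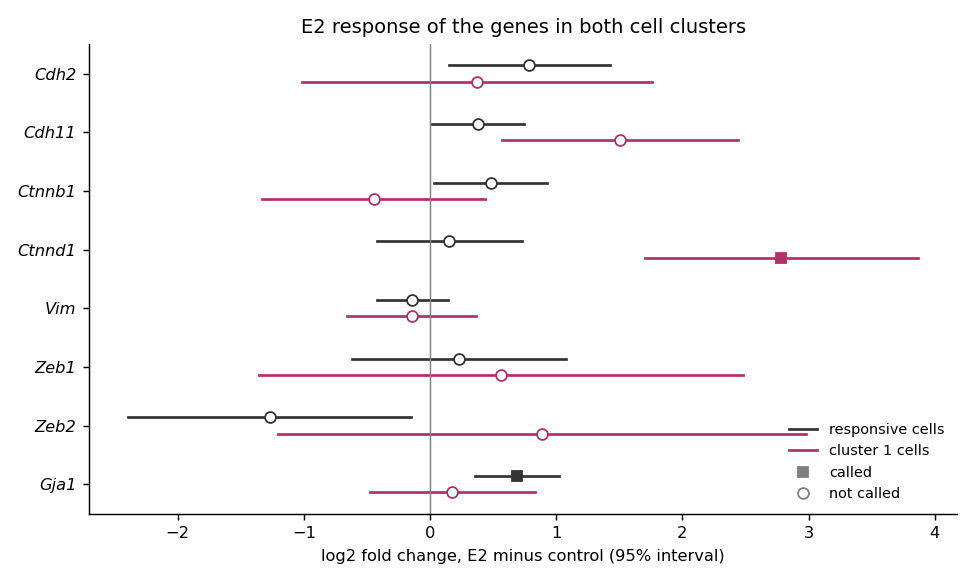
Log2 fold change of E2 over control with its 95% interval for 8 genes in responsive cells (black) and cluster 1 cells (magenta), from edgeR; squares mark genes that were called and open circles those that were not. Gja1 was called in responsive cells at 0.69 and Ctnnd1 in cluster 1 cells at 2.78, a value that was 1.46 without one library of 3 cells.

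**Figure D4:**
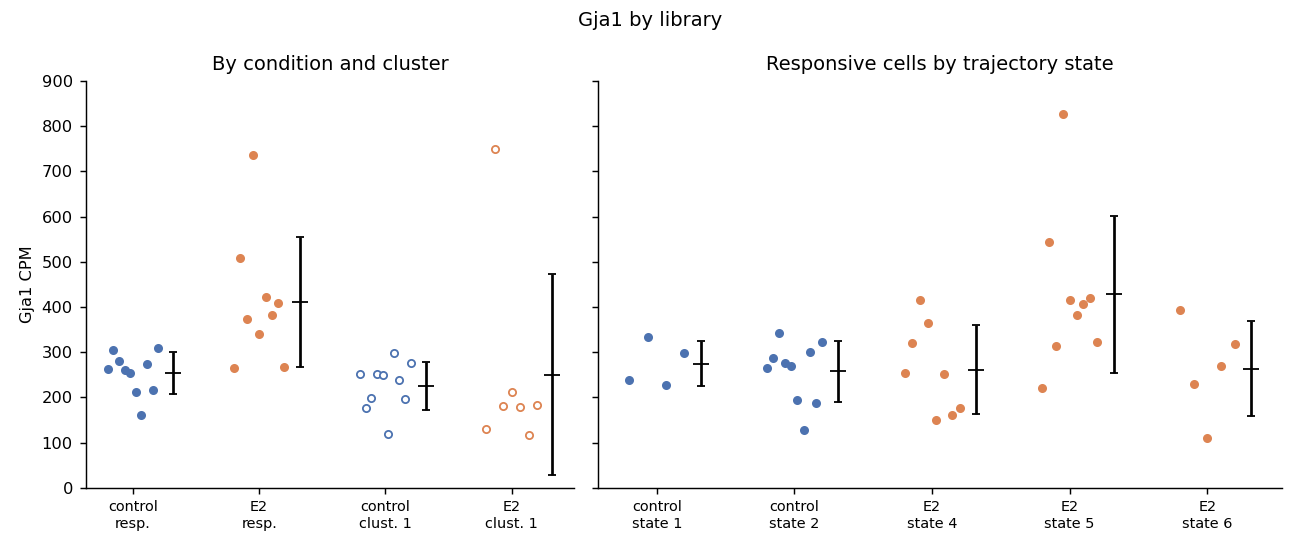
Gja1 level in CPM, one point per library with the mean and SD, by condition and cluster (left) and, for responsive cells, by trajectory state in libraries with at least 3 cells of that state (right). With E2, the libraries' means were 411 CPM in responsive cells as a whole (left). States 5, 4 and 6 had 428, 261 and 263 CPM (right). The right panel was scaled to total reads without TMM factors, so levels do not compare between the panels.

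In cluster 1 cells the 7 E2 libraries were set against the 10 control libraries. Ctnnd1 was the one gene of the list that passed the test, with a log2 fold change of 2.78 (SE 0.55; edgeR's quasi-likelihood test, Benjamini-Hochberg adjusted p = 0.0415), where 0.0839% of 8340 genes tested were called, 0.036% higher and 0.048% lower with E2, and 0.108% had ranges that did not overlap. In 6 of 7 E2 libraries Ctnnd1 was above every control library, and E2 library 16, at 45.5 CPM, was below the control median. The call was made in 3 of 8 other settings and lost with DESeq2 (1.46; adjusted p = 0.0528), limma-voom (1.57; adjusted p = 0.402), no filter (2.63; edgeR, adjusted p = 0.0744) and sums of at least 5 cells or at least 1 cell (1.46 and 2.52; edgeR, adjusted p = 0.282 and 0.442). The size of the change rested on E2 library 15, at 1766 CPM, where 339 reads came from 3 cells with 105, 230 and 4 reads each. The other 6 E2 libraries measured 150.4 ± 66.0 CPM (SD, n = 6; 45.5 to 229.7) against 55.9 ± 26.1 CPM (SD, n = 10) in control. Without library 15 the log2 fold change was 1.46 and was not called (edgeR, adjusted p = 0.282), and the call was also lost without any one of the 10 control libraries or without E2 library 11, 19 or 20 (2.68 to 2.98; edgeR, adjusted p 0.0579 to 0.0904). Single cells gave 27.7 to 89.9% of the Ctnnd1 reads in the 7 E2 sums.

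None of the other genes passed in cluster 1. Cdh11 had a log2 fold change of 1.51 (SE 0.48; edgeR, adjusted p = 0.327), which was 0.50 without library 15, where 359 of its 1068 reads in E2 cluster 1 cells were found. Ctnnb1 had -0.45 (SE 0.45), Gja1 0.18 (SE 0.33), Vim -0.15 (SE 0.26), Cdh2 0.37 (SE 0.71), Zeb1 0.56 (SE 0.98) and Zeb2 0.89 (SE 1.07), all with intervals that included 0 (edgeR, adjusted p from 0.922 to 0.962). For Gja1 the sign turned with library 15 left out (-0.39), and its 6 other E2 libraries measured 167 ± 36.0 CPM (SD, n = 6) against 226 ± 53.0 CPM (SD, n = 10) in control.

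Whether the effect of E2 differed between the clusters was tested as an interaction, where 0.184% of 11398 genes were called (0.0175% with a larger and 0.167% with a smaller E2 effect in cluster 1) and the median of all genes was -0.19. None of the 8 genes was called by edgeR with TMM scaling and all libraries, and 2, Ctnnd1 and Cdh11, were at an unadjusted p below 0.05, as were 1244 of all 11398 genes. Both clusters come from the same libraries, and with the library as a block 0 genes were called by edgeR (902 at an unadjusted p below 0.05). Ctnnd1 came closest, with an E2 effect larger in cluster 1 by 2.58 on the log2 scale (SE 0.63; edgeR, adjusted p = 0.0666). It was called by DESeq2 (2.99; adjusted p = 0.00207) and by edgeR with RLE size factors (2.98; adjusted p = 0.0375), and without control library 1 or E2 library 11 or 16 (edgeR, adjusted p = 0.0484, 0.0458 and 0.0261), but with the library as a block it was 1.61 (edgeR, adjusted p = 0.576), and without library 15 it was 1.32 (edgeR, adjusted p = 0.313). The E2 effect on Gja1 was smaller in cluster 1 by a log2 difference of -0.58 (95% interval -1.30 to 0.14; edgeR, adjusted p = 0.604), so that the rise seen in responsive cells was not shown to be absent from cluster 1. For Ctnnb1 the difference was -0.98 (SE 0.49; edgeR, adjusted p = 0.459).

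Over all cells of a library, without regard to cluster, Gja1 again was the one gene of the list called (log2 fold change 0.66, SE 0.16; edgeR, adjusted p = 0.0339), where 1.62% of 10945 genes were called, 1.13% higher and 0.484% lower with E2. This mixes the clusters, of which cluster 1 held 42 of 260 E2 and 126 of 329 control cells. The call was kept in 3 of 5 other settings and in 9 of 19 fits that left out one library.

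Around these genes, 8 lists of related genes were read in the same fits. Among 21 tested catenins and partners of the adherens junction, Pkp4 rose with E2 in responsive cells (log2 fold change 2.54, SE 0.60; edgeR, adjusted p = 0.0264). Pkp4, or plakophilin 4, is a relative of p120-catenin that is found at adherens junctions and desmosomes, and it measured 60.7 ± 33.2 CPM (SD, n = 9) with E2 and 10.3 ± 8.73 CPM (SD, n = 10) in control. The call was lost without E2 library 17 or 20 (edgeR, adjusted p = 0.0606 and 0.0557). Among 7 tested mesenchymal markers, Thy1 fell, from 169 ± 56.8 CPM (SD, n = 10) to 24.6 ± 16.7 CPM (SD, n = 9) at a log2 fold change of -2.78 (edgeR, adjusted p = 2.38e-06). Lgals1, the lectin galectin 1, rose from 16442 ± 2729 CPM (SD, n = 10) to 34931 ± 7970.2 CPM (SD, n = 9), a log2 fold change of 1.08 (edgeR, adjusted p = 8.09e-06). These 2 markers thus moved in opposite directions, and the list's median was -0.45.

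No gene was called by edgeR in responsive cells among 6 further cadherins and protocadherins, 20 regulators and targets of β-catenin, 12 further EMT transcription factors, 5 epithelial factors, 14 genes of tight junctions and desmosomes and 3 connexins and pannexins. At an unadjusted p below 0.05 were 0, 1, 0, 0, 3 and 0 of them, against 1015 of all 10265 genes, and their medians were 0.13, -0.01, -0.02, -0.27, -0.15 and 0.03 against 0.02 over all genes. DESeq2 called no further gene of these lists. No gene of the 8 lists was called in cluster 1 cells or in the interaction by edgeR with all reads, TMM scaling and all libraries. At an unadjusted p below 0.05 were 1 cadherin, 2 catenins or partners, 1 mesenchymal marker and 1 junction gene in cluster 1, and 2, 3, 4 and 2 of the same lists, 1 β-catenin gene and 1 connexin in the interaction, against 622 of all 8340 genes in cluster 1 and 1244 of all 11398 in the interaction. DESeq2 called 1 gene, the tight junction scaffold Tjp1, in both, and edgeR called it in cluster 1 on thinned cells and in the interaction without E2 library 11. Over all cells, Pkp4, Thy1 and Lgals1 were called in the same direction, and Tagln, an actin-binding protein of smooth muscle, fell by 3.41 on the log2 scale (edgeR, adjusted p = 0.0444), but by 1.98 (adjusted p = 0.255) without control library 6. The Tagln call was lost in 13 of 19 fits that left out one library. It was also lost with limma-voom (-1.435, adjusted p = 0.6185) and without a filter (-3.43, edgeR, adjusted p = 0.0553). In control cluster 1 cells Tagln measured 126 ± 365 CPM (SD, n = 10) with a median of 4.12 CPM.

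Between the clusters, 3 of 9 fitted mesenchymal markers and 1 of 15 junction genes had library values that did not overlap, against 0.588% of all genes. Fn1, the matrix protein fibronectin, measured 1157 ± 222 CPM (SD, n = 19) in responsive and 90.5 ± 79.0 CPM (SD, n = 17) in cluster 1 cells. Sparc, a secreted matrix glycoprotein, measured 6735 ± 1171 and 2962 ± 852 CPM, Lgals1 25199.9 ± 11042 and 2098 ± 1361 CPM, and Cldn3, a tight junction claudin, 54.5 ± 22.4 and 1.498 ± 1.88 CPM in the same order (SD, n = 19 and 17). Library values of these 4 genes did not overlap between the clusters, all of them lower in cluster 1, and no gene of the 8 lists stood apart in the higher direction. As before, these values are a description without a p-value.

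Per cell, Vim and Gja1 were read in at least 92.1% of the cells of each group. A read of Gja1 was found in 94.1% of control and 94.95% of E2 responsive cells and in 92.1% and 92.9% of cluster 1 cells. Cdh11 was read in 90.1%, 81.7%, 81.7% and 85.7% of the cells of the 4 groups in the same order. Ctnnb1 went from 87.7% and 80.3% in responsive cells to 71.4% and 57.1% in cluster 1 cells, and with each cell thinned to 20000 reads from 80.3% and 73.9% to 61.9% and 45.2%. Any value above 0 counts here, also one from sequence shared with Ulk4, so these are not shares for Ctnnb1 alone. Zeb2 was read in 28.6% of control and 21.6% of E2 responsive cells and, after thinning, in 18.7% and 7.80%. Zeb1 stood at 13.8% and 15.1% after thinning in the same cells.

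Reads of both cadherins were found in 141 of 421 responsive cells (33.5%) and in 61 of 168 cluster 1 cells (36.3%). These shares are close to the products of the separate shares of Cdh2 and Cdh11, 33.4% and 36.9%, so no division of cells by cadherin was seen at this depth. The median cell of each cluster had no Cdh2 read, so the shares cannot exclude such a division, and no test was made. At least one of Snai2, Zeb1 and Zeb2 was read in 41.1% of responsive and 36.3% of cluster 1 cells, and 5 of the 9 genes were read in the median cell of each cluster. The 40 capture rows repeat in every column, so all 40 row barcodes are shared between libraries and a cell is known by row and column together.

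Along the deposited trajectory, the higher Gja1 level of E2 responsive cells was found in state 5. Its 151 cells, all of them E2-treated, gave 428 ± 174 CPM (SD, n = 9 libraries). Only libraries with at least 3 cells of a state entered, which left out some cells of states 4 and 6. State 4 held 42 E2 responsive cells, and its libraries of 3 to 9 such cells gave 261 ± 98.7 CPM (SD, n = 8). State 6 held 21, and its libraries of 3 cells each gave 263 ± 106 CPM (SD, n = 5). The 143 control responsive cells of state 2 gave 257 ± 67.0 CPM (SD, n = 10). States 4 and 6 with E2 were thus near the control level, and state 5 reached from 221 to 827 CPM. Levels by state were scaled to total reads without TMM factors, so they compare with each other but not with the levels by cluster. The states too were derived from the expression of these cells, and no test was made. For Zeb2 the levels in the E2 states 4, 5 and 6 were 6.36 ± 10.8, 12.8 ± 13.5 and 9.76 ± 18.7 CPM, below the 31.8 ± 19.1 CPM of control cells of state 2. But control responsive cells of state 1, 22 in all, also had a low level. Their libraries of 3 to 7 such cells gave 3.54 ± 2.33 CPM (SD, n = 4).

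Pairs of the 9 genes showed little relation across cells in the counts. Over 36 pairs, Pearson's r of log2 counts per 10000 reads plus 1 was -0.115 to 0.0901 across 421 responsive cells and -0.193 to 0.223 across 168 cluster 1 cells, the highest being Zeb1 with Zeb2 in cluster 1. In the deposited imputed values, in which MAGIC shares values between similar cells, r ran from -0.419 to 0.766 and from -0.314 to 0.843. Cdh11 and Gja1 in cluster 1 cells had the highest imputed r, 0.843, and 0.187 in the counts, and Cdh11 and Ctnnb1 there had 0.601 imputed and -0.193 in the counts. More than 0.5 in the imputed values were 12 and 19 pairs in responsive and cluster 1 cells, and the sign differed between counts and imputed values for 17 of 36 pairs in responsive and 10 of 36 in cluster 1 cells. These are descriptions without a test, since cells share libraries and depth and the counts are sparse.

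**Figure D5:**
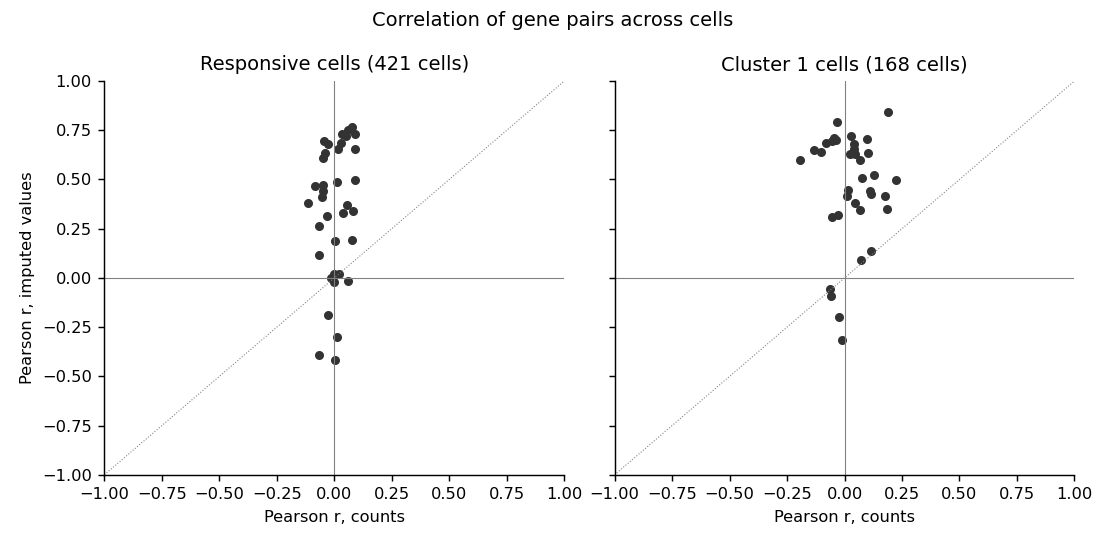
Pearson's r of each of 36 pairs of the 9 genes across cells, in deposited imputed values (vertical axis) against counts (horizontal axis), for 421 responsive and 168 cluster 1 cells; the dotted line marks equal r. In the counts all pairs lie between -0.193 and 0.223, while imputed values spread from -0.419 to 0.843.

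Across the 36 sums of both clusters, the genes whose log2(CPM + 1) was most like that of each gene were Cystm1 (r = 0.76) and Snhg11 (0.75) for Gja1, Pi4k2b (0.81) and Osbpl2 (0.76) for Cdh2, and Fam114a2 (0.84) and the unnamed ENSMUSG00000094614 (0.80) for Cdh11. Ctnnb1 was most like Pgk1-rs7 (0.81) and Rpap3 (0.78), Ctnnd1 like Prpf4b (0.76) and Ctsl (0.72), and Vim like Ncbp2 (0.78) and Itgb8 (0.73). For Zeb1 they were Arl6ip4 (0.65) and Svbp (0.64), and for Zeb2 Reps1 (0.67) and Cnppd1 (0.66). Without the sum of E2 library 15 in cluster 1, r fell to 0.54 and 0.51 for the genes like Ctnnd1 and to 0.63 and 0.58 for those like Cdh2. It fell to 0.71 and 0.73 for those like Cdh11 and to 0.72 and 0.70 for those like Gja1. For Ctnnb1, Vim, Zeb1 and Zeb2 it was then 0.63 to 0.82. The sums share libraries and differ in depth, and r is given without a test.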

How the data were processed

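Each of 20 circuit columns gave one 3′ cDNA library, and 19 libraries with 589 cells were used. Against doublets, the authors kept capture sites imaged with one live cell and removed cells above a limit on reads. They quantified transcripts with kallisto 0.44.0, summed them to genes with tximport, filtered cells and genes with scater, and deposited the estimated counts without normalization; the genome build per the labels was GRCm38. The deposited imputed values were made by the authors with scran scaling per cell, MAGIC imputation and a log transform, taken here as log2 because the base is not given in the sources used here. The percentage of mitochondrial reads per cell was computed by the authors with scater, and SC3 cluster and monocle state labels were used as deposited. Of all values in the count table, 70.1% were 0, and of those above 0, 66.9% were exactly whole.

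Here, for each library and cluster with at least 3 cells, the cells were added up into one sum, which was rounded, filtered with filterByExpr, scaled with TMM and tested with edgeR's quasi-likelihood test (edgeR 4.0.16, R 4.3.3), with Benjamini-Hochberg adjustment over all genes tested. The tests in responsive cells, in cluster 1 and of the interaction were run on simulated data first, and the test over all cells was not. Libraries were the samples, in place of the single cells tested in the study. An interval of a log2 fold change is a normal 95% interval from its SE, and intervals of shares are exact Clopper-Pearson intervals. CPM of the sums by library and cluster used TMM factors over all 36 sums, and log2 levels had 1 CPM added. CPM by trajectory state used the total reads of each sum, without TMM factors. The members and lists were chosen with earlier results of these data known. Named were all members, genes of the lists called in any of the 4 tests (at most 4 in each direction per test) and, for each member, the 2 genes most correlated with it over the sums; any other gene named was chosen after its values were seen. Alternatives were DESeq2 1.42.0, limma-voom (limma 3.58.1), no filter, RLE size factors, cells thinned to 20000 reads, 5 or 1 cells per sum, the labels for 3 clusters (586 cells had the same label), the library as a block, and leaving out each library. Column 13 and Cdh1 were not analysed here, and one result of the gene lists is not reported here.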

Additional observations from a re-analysis of the deposited data

Results flagged for a closer look

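Each of 36 sets of library values (9 genes in 4 groups) was checked for a library far from the others by Dixon's criterion. Such a library was found in 14 sets. The criterion flags about 1 in 20 sets by chance when values are normally distributed. Many of these CPM sets are skewed, and a Snai2 set with reads in a single library is flagged whatever its level. The count of 14 therefore cannot show an excess of aberrant libraries. By edgeR with TMM scaling and all libraries, no gene of the list was called for a difference of its E2 effect between the clusters. E2 library 15, with 3 cluster 1 cells, was the high one of the E2 cluster 1 libraries for Ctnnd1 (1766 CPM, next 229.7), for Cdh11 (1870.2 CPM, next 555) and for Gja1 (750.2 CPM, next 212), and one cell held 67.8%, 46.5% and 79.2% of these reads. The same library was high for Ctnnb1 in responsive cells, at 669 CPM (next 381), where its 2062 reads came from 20 of 24 cells and the top cell held 11.1% of them.

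Cdh2 was high in control library 7 of responsive cells (54.5 CPM, next 33.0; 8 of 18 cells with a read) and in E2 library 19 of cluster 1 (144 CPM, next 54.2). Zeb1 was high in control library 8 (79.8 CPM, next 42.4) and E2 library 11 (104 CPM, next 56.0) of responsive cells and in control library 3 of cluster 1 (129 CPM, next 50.5), with 54.2%, 39.5% and 51.1% of the reads in one cell. Zeb2 was high in control library 5 (58.1 CPM, next 25.7) and E2 library 18 (150.04 CPM, next 15.6) of cluster 1, where one cell held 85.0% and 84.3% of the reads. For Snai2 one library held the few reads in control responsive cells (library 9, 0.750 CPM, 2 reads), control cluster 1 cells (library 7, 8.25 CPM, 16 reads in one cell) and E2 cluster 1 cells (library 11, 1.29 CPM, 1 read). The part of single cells in the group differences of these genes was not tested beyond leaving out each library.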

How the results depend on the processing

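With 1 cell suspension per condition, p-values measure the spread between libraries of one circuit, and E2 cluster 1 rests on 39 cells. Of 235 values of the 8 tested genes under other settings, 215 kept direction and side of the threshold, 8 lost the call, 2 gained it and 10 turned sign; the cause was not tested. Of 592 values with one library left out, 544 kept both, 32 lost the call, 3 gained it and 13 turned sign. Of 108 shares of cells with a read, 33 moved with thinning or with a minimum of 2 reads, settings that can only lower a share or leave it unchanged.

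DESeq2 called 236 genes in responsive cells (edgeR 141), 52 in cluster 1 (edgeR 7), 109 in the interaction (edgeR 21) and 324 over all cells (edgeR 177). In cluster 1, 1 gene was called without a filter and 0 with sums of at least 1 cell, where 417 had an unadjusted p below 0.05. In the interaction limma-voom called 13 genes and thinned cells 5. Leaving out one library gave 107 to 141 calls in responsive cells, 1 to 9 in cluster 1, 15 to 44 in the interaction and 133 to 209 over all cells.

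Signs turned in cluster 1 for Cdh2 (limma-voom -0.31), Zeb2 (limma-voom -0.61) and Gja1 (DESeq2 -0.28, limma-voom -0.33, at least 5 cells -0.39), and in the interaction for Cdh11 (limma-voom -0.0891), Vim (DESeq2 0.12, RLE 0.12, at least 5 cells 0.0021) and Zeb1 (thinned -0.24). The median of all genes was -0.38 in cluster 1 and -0.35 in the interaction under limma-voom and -0.53 in the interaction with the library as a block, against -0.06 and -0.19 by edgeR. With one library left out, values ran from -0.19 to 0.54 for Zeb1 in responsive cells, in cluster 1 from -0.37 to 0.57 for Cdh2, -0.39 to 0.32 for Gja1, -0.0108 to 1.28 for Zeb1 and -1.49 to 1.47 for Zeb2, and in the interaction from -0.25 to 0.0787 for Vim, -0.36 to 1.02 for Zeb1 and -0.38 to 2.69 for Zeb2.

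No paired analysis was possible because control and E2 libraries share no replicate number, except that both clusters come from the same libraries: with the library as a replicate block, edgeR called 0 genes in the interaction (902 at an unadjusted p below 0.05), and Ctnnd1 was at 1.61 (edgeR, adjusted p = 0.576).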

Other observations

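Tjp1, the tight junction scaffold ZO-1, was looked at after its values were seen. It measured 11.7 to 146 CPM (71.0 ± 37.9, SD, n = 10) in control and 0 to 19.4 CPM (5.82 ± 7.36, SD, n = 7) in E2 cluster 1 cells, and 37.1 ± 16.5 CPM (SD, n = 10) in control and 26.9 ± 18.3 CPM (SD, n = 9) in E2 responsive cells. Its log2 fold change in cluster 1 was -3.48 (SE 0.83) and was not called by edgeR (adjusted p = 0.169), while it was called by DESeq2 (-3.43, adjusted p = 0.000966) and by edgeR on thinned cells (-3.78, adjusted p = 0.0449), with the same direction in all 8 other settings. The difference of the E2 effects between the clusters was -3.04 (SE 0.81; edgeR, adjusted p = 0.0994; DESeq2, adjusted p = 0.0155).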
